A study of Mus musculus with 6 samples.

Results

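Mitochondrial ribosomal proteins are the protein parts of the ribosome inside mitochondria. The genes described here were taken by symbol, as the rows of the count table whose name begins with Mrpl or Mrps followed by a digit, leaving out 5 pseudogene rows whose names carry -ps. This gave 78 of the 53670 rows, 49 with the prefix for the large subunit (Mrpl) and 29 with that for the small subunit (Mrps). The rule itself uses no measured value, but the family was chosen with earlier results of these data known.

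RNA had been sequenced from pancreatic islets, small groups of endocrine cells within the pancreas, freed with collagenase from mice 6 weeks of age. One group of 3 libraries was Paupar +/+ (wild type, WT) and the other group of 3 was Paupar -/- (knockout, KO), where Paupar is a long noncoding RNA gene beside Pax6. The labels name no other allele or agent, do not say how the allele was made, and do not say whether a library came from 1 mouse or from pooled mice. P-values therefore measure only the spread between these libraries, which may be technical.

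The mitochondrial ribosome makes only the few proteins encoded in mitochondrial DNA, all of them subunits of the respiratory chain and ATP synthase, while its own proteins are encoded in the nucleus, made in the cytosol and imported. Its small subunit holds the messenger RNA and reads the codons, and its large subunit joins the amino acids and passes the new chain out through a tunnel. In the insulin-secreting beta cells of the islet, oxidative phosphorylation supplies the ATP that couples glucose uptake to insulin release.

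Total counts ran from 25733194 to 27285009 per library. Paupar was read 177, 252 and 111 times in the WT libraries and 4, 0 and 4 times in the KO libraries. Values are listed throughout in the order of replicates 1 to 3. The insulin gene Ins2, the defining islet transcript, stood at 137000 to 184000 CPM (the count scaled to the library's total and by edgeR's TMM factors) in the 6 libraries. The female-specific Xist had 0 to 6 counts in the WT libraries and KO replicate 1 but 1120 and 862 in KO replicates 2 and 3, and the Y-linked Ddx3y had 1316 to 1830 counts in the first set and 2 and 0 in the second. Genotype and sex were thus partly mixed, and KO replicate 1 is the KO library that matches the WT libraries in sex. The summed level of the 14 beta cell markers, 10 of which had a positive fold change, ran from 218800 to 238200 CPM in WT and from 283000 to 289800 in KO. Their median log2 fold change was 0.261, but 0.0111 with 7 of 14 positive when sex was a covariate. In that fit the KO term rests on KO replicate 1 alone, so the part of sex cannot be told apart from that of this library. The 14 endothelial markers, 12 of them positive, summed to 457.6 to 576.7 CPM in WT and 642.7 to 676.6 in KO. The 23 acinar markers (exocrine cells) took 3.12 to 9.30% of counts in WT and 2.17 to 5.60% in KO, with 22 of 23 fold changes negative. Their median was -0.515, but 0.0113 with 13 of 23 positive under the sex covariate. Of the 12 alpha cell markers 10 were negative, with a median log2 fold change of -0.339. Their sum overlapped between the groups at 36510 to 46980 CPM in WT and 32900 to 38350 in KO. DESeq2 called 4 alpha cell markers and 1 delta cell marker lower, beside 4.1% of the genes to which it gave an adjusted p. It called 3 beta cell and 3 endothelial markers higher, beside 1.96% of those genes. The medians were 0.394 for 14 stellate and fibroblast markers (11 positive), 0.269 for 12 macrophage markers (10 positive), -0.258 for 10 duct markers (2 positive) and -0.0494 for 5 delta cell markers (1 positive), with sums that overlapped. Under the sex covariate the medians were -0.459 for alpha cell, -0.588 for delta cell, 0.367 for endothelial and 0.392 for macrophage markers. They were 0.274 for stellate and fibroblast and -0.115 for duct markers. None of these markers was at 0 in every library. The part of cell makeup in the values below was not tested, and in bulk RNA fewer cells of a type and less RNA per cell cannot be told apart.

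The promoters of 4 genes are shown because they belong to the pair with the highest and the pair with the lowest KO over WT ratio for which groups did not overlap and a promoter was at hand. Each run holds 150 bases before and 50 bases after the RefSeq gene start on build GRCm38.p6, read 5′ to 3′ on the gene's strand. Capitals mark a match to one of 3 short motifs of factors known as regulators of nuclear genes for mitochondria: CGCANGCG for NRF1, CCGGAAG for GABP and AAGATGGC for YY1, each searched on both strands.
Mrpl36 (chr13:73330859-73331058, plus strand): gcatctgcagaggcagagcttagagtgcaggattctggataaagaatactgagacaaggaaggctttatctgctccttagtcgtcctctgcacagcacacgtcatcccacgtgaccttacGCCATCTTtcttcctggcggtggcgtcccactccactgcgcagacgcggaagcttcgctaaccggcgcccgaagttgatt
Mrps14 (chr1:160195065-160195264, plus strand): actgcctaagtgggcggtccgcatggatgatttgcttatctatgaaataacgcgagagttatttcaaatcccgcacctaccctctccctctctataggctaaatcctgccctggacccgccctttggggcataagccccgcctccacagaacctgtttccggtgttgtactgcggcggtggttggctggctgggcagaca
Mrps12 (chr7:28741772-28741971, minus strand): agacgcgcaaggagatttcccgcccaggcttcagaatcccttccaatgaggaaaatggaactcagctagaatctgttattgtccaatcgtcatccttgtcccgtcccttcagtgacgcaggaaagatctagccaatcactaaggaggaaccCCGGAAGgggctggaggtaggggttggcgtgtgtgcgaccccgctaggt
Mrpl37 (chr4:107066817-107067016, minus strand): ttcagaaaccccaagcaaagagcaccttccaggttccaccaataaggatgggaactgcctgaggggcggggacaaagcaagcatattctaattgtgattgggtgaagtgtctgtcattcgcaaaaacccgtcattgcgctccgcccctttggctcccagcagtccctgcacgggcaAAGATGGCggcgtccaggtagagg
The YY1 letters stood in the Mrpl36 promoter on the opposite strand and in that of Mrpl37 on the gene's own strand, the GABP letters stood just after the start of Mrps12, and none of the 3 motifs occurred in the window of Mrps14. The longer promoter of Mrps12 that is counted below also held the YY1 letters, outside the run shown.

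KO was compared with WT first over the whole family. Of the 78 genes, 77 passed the low-count filter and were tested, 48 Mrpl and all 29 Mrps. No member was called higher or lower in KO by edgeR's quasi-likelihood test at a Benjamini-Hochberg adjusted p below 0.05, against a background of 0 of 15915 tested genes called higher (0%) and 27 called lower (0.17%). The lowest adjusted p among the members was 0.119, for Mrpl36. At an unadjusted p below 0.05, 10 members were higher in KO and 0 were lower, while over all tested genes 6.99% were higher and 9.38% lower. DESeq2 called 1 member higher, Mrpl36, and none lower, against 209 (1.96%) and 437 (4.1%) of the 10659 genes to which it gave an adjusted p.

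Single members thus stayed short of the edgeR threshold, and what the family shared was the sign of small fold changes. The log2 fold change of KO over WT was above 0 for 68 of the 77 tested members and below 0 for 9, whereas 50.3% of all tested genes were above 0. It was above 0 for 52 members (67.5%, and 37.7% of all tested genes) when libraries were scaled by their totals alone, and for 53 (68.8%, and 48.5% of all tested genes) with offsets for exonic length and GC content. The median over the members was 0.125, a level 9.07% higher in KO, beside 0.00226 over all tested genes. For 28 members each KO library lay above each WT library (36.4%, background 11.3%), or for 12 with library totals as the scale (15.6%, background 4.64%), and for 2, Mrps12 and Mrpl37, each KO library lay below each WT library (2.6%, background 12.1%). The other 47 overlapped between the groups. Median standard error (SE) of a member's log2 fold change was 0.0982, so most of these differences were little larger than their error.

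**Figure D1:**
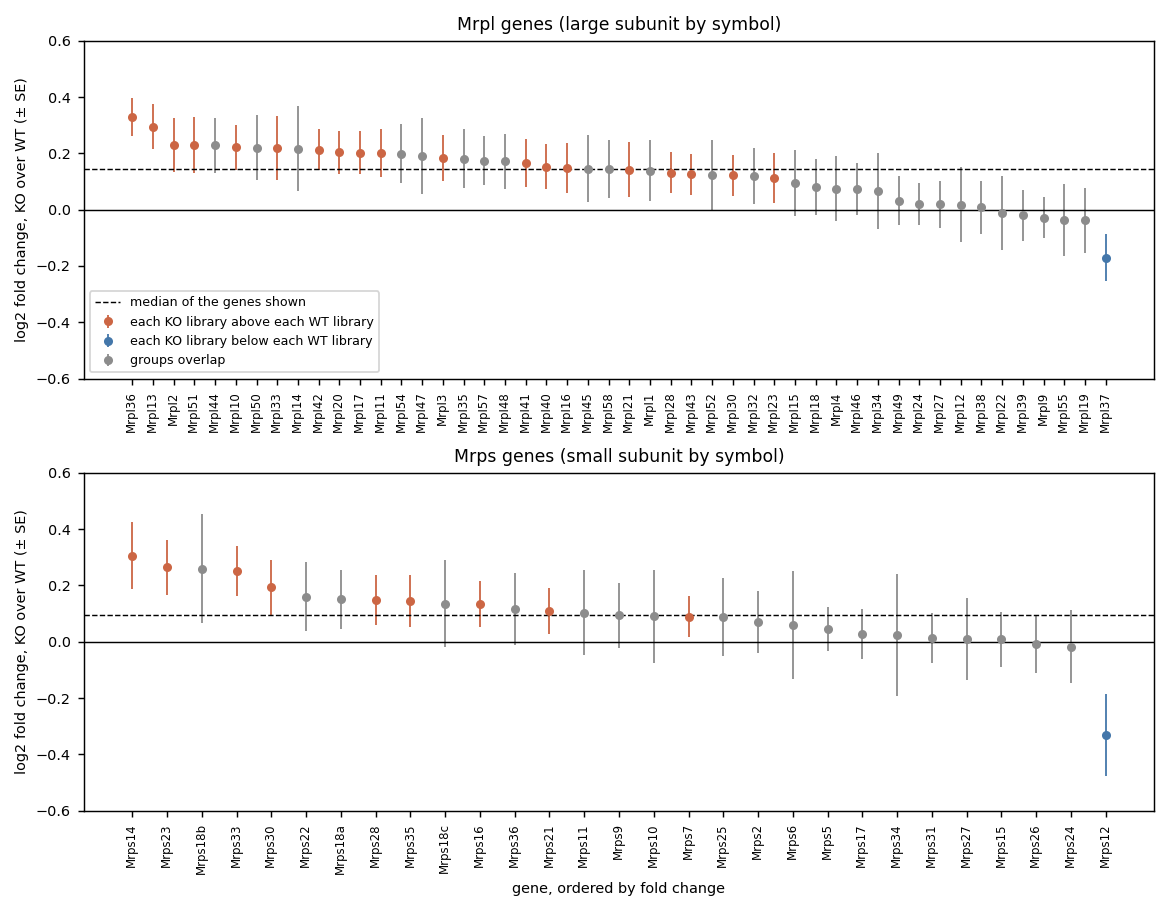
Log2 fold change of KO over WT (y axis, ± SE from edgeR) for the 48 tested Mrpl genes (upper panel) and the 29 Mrps genes (lower panel), ordered by fold change. Colour shows whether each KO library lay above or below each WT library, and the dashed line is the panel's median, 0.144 for Mrpl and 0.0934 for Mrps. Most points lie above 0, and Mrps12 at -0.33 and Mrpl37 at -0.17 stand below it.

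The shift was seen in every KO library, to unequal extent. When each member was set against its own mean over the 6 libraries on the log2 scale (pseudocount 0.5 CPM), the median member stood at -0.0233, -0.0942 and -0.0624 in the WT libraries and at 0.0907, 0.0698 and 0.0223 in the KO libraries. The 2 groups did not overlap in this median, and KO replicate 3 was nearest to WT. Over all tested genes the same median lay between -0.00334 and 0.0109 in the 6 libraries. Members above their own mean numbered 28, 18 and 22 in the WT libraries and 57, 61 and 48 in the KO libraries. Of all tested genes, 49.3 to 52.0% lay above their own mean in each of the 6 libraries. In KO replicate 1, the library of the same sex as the WT libraries, 57 of 77 members lay above their mean. With sex as a covariate, a fit whose KO term rests on that library alone, the members' median log2 fold change was 0.136. In that fit 63 of 77 members (81.8%) were above 0, beside 49.7% of all tested genes.

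The size of the shift depended on how libraries were put on one scale. As a share of all counts the members made up 0.136, 0.138 and 0.142% in WT and 0.144, 0.144 and 0.141% in KO, and these ranges overlapped. With the library total as the scale, chosen after seeing the data because insulin transcripts took a larger share of KO counts, the median of the members was 0.0473 and that of all tested genes was -0.0754. The distance between these medians was 0.123 on either scale. A change of scale moves all genes nearly alike, so this distance could hardly differ and is no check of the shift.

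Members are short transcripts, whose exons cover 1729 bp in the median compared with 3524 bp for the 14779 tested genes found in the GENCODE vM1 annotation of mm9, and shorter genes tended to have higher fold changes in these libraries (Spearman correlation of length with log2 fold change -0.233 over those genes, which are not independent replicates). Within the 77 tested members that correlation was -0.0636, and the shorter and longer members had medians of 0.132 and 0.117, an order that turned with the offsets described next (0.0386 with 23 of 39 positive, and 0.0721 with 30 of 38). Smooth offsets per library on length and GC content brought the members' median to 0.0569, beside -0.00905 over all tested genes. How the relation with length arose was not tested.

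Large and small subunits were then compared. The large subunit genes summed to 913.8, 881.3 and 904.8 CPM in the WT libraries and to 1007, 993.4 and 968.2 CPM in the KO libraries. Every KO library was above every WT library, with means of 900.0 ± 16.8 and 989.7 ± 19.9 CPM (SD, n = 3). The small subunit genes summed to 456.0, 443.4 and 445.4 CPM in WT and to 484.3, 490.5 and 462.3 CPM in KO. These groups also stood apart, with means of 448.3 ± 6.76 and 479.0 ± 14.8 CPM (SD, n = 3), although KO replicate 3 was close to WT replicate 1. On the log2 scale the sums differed by 0.137 for the large and 0.0958 for the small subunit. Scaled by library totals these differences were 0.0604 and 0.0190, and the small subunit sums of WT and KO then overlapped.

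The large subunit had the larger median fold change, 0.144 over 48 genes with 42 above 0, against 0.0934 over 29 genes with 26 above 0. With the length and GC offsets the medians were 0.0641 and 0.0477, and without WT replicate 1 they were 0.144 and 0.129. Whether the subunits differ was not tested. Groups stood apart, KO above WT, for 19 large (39.6%) and 9 small subunit genes (31.0%, background 11.3%). An unadjusted p below 0.05 with KO higher was found for 7 large and 3 small subunit genes, beside 6.99% of all tested genes. The ratio of the small to the large subunit sum was 0.499, 0.503 and 0.492 in WT and 0.481, 0.494 and 0.477 in KO. Values were lower in the mean of KO, and KO replicate 2 lay within the WT range, at 0.498 ± 0.00557 in WT and 0.484 ± 0.00889 in KO (SD, n = 3), and the difference of -0.0142 ran from -0.0191 to -0.0109 when 1 library was left out. Without Mrps12 the ratio was 0.472, 0.469 and 0.468 in WT and 0.459, 0.472 and 0.459 in KO, with means of 0.470 and 0.463.

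**Figure D2:**
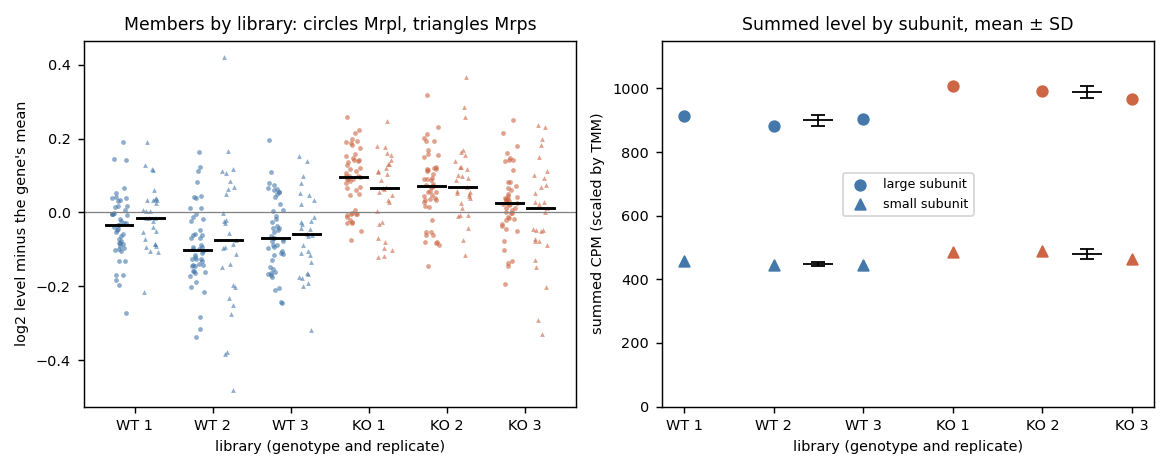
Left, log2 level of each member minus its mean over the 6 libraries, by library, with circles for Mrpl, triangles for Mrps, blue for WT, orange for KO and black bars for medians. Right, summed CPM of the large (circles) and small (triangles) subunit genes by library, with the mean ± SD of each group drawn between replicates 2 and 3; the KO sums of both subunits lie above the WT sums.

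The letter in a symbol does not always give the subunit. In the structure of the mammalian mitochondrial ribosome the products of Mrps30 and Mrps18a sit in the large subunit, and the product of Mrps36 is now known as a subunit of the 2-oxoglutarate dehydrogenase complex, not of the ribosome. Mrps30 was at 13.8, 12.0 and 14.0 CPM in WT and 15.3, 15.5 and 14.7 CPM in KO, without overlap (edgeR log2 fold change 0.19, SE 0.10, adjusted p = 0.384). Mrps18a was at 17.9, 19.3 and 22.4 CPM in WT and 22.9, 21.9 and 21.3 CPM in KO, and overlapped (0.15, SE 0.10). Mrps36 was at 6.23 to 7.41 CPM in WT and 7.18 to 7.84 CPM in KO, with a log2 fold change of 0.12 (SE 0.13) that became -0.06 with the length and GC offsets. Sorted by structure in place of symbol, the medians were 0.145 for 50 large and 0.089 for 26 small subunit genes.

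Mitochondrial ribosomes share a core of proteins with bacteria and have gained further proteins of their own. The 47 tested genes with a bacterial homologue had a median log2 fold change of 0.113, with 41 above 0, and the 29 tested mitochondrion-specific genes had a median of 0.145, with 26 above 0. Within the large subunit of the structure the medians were 0.138 and 0.153, and within the small subunit 0.089 and 0.116. The differences between these medians were not tested.

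In the large subunit, Mrpl36 had the highest fold change of the family. It encodes the counterpart of bacterial L36, a very small protein of the large subunit, and lies on chr13:73468457-73469623 (mm9), with 899 exonic bases. Its level was 25.7, 26.2 and 25.6 CPM in the WT libraries and 33.1, 31.4 and 32.8 CPM in the KO libraries. The WT libraries lay within 1 CPM of each other and well below the KO libraries, at 25.8 ± 0.316 against 32.4 ± 0.949 (SD, n = 3). The edgeR log2 fold change was 0.33 (SE 0.07, adjusted p = 0.119), with an adjusted p of 0.0134 in DESeq2. It was 0.36 with sex as a covariate and 0.20 with the length and GC offsets.

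Mrpl13, counterpart of bacterial L13 (chr15:55365649-55389303), came next among the large subunit genes. Its level was 17.7, 18.7 and 17.8 CPM in WT and 22.1, 21.2 and 23.3 CPM in KO, again without overlap. The edgeR log2 fold change was 0.30 (SE 0.08, adjusted p = 0.178), and it was also 0.30 with the offsets. Its annotated exons span 7936 bp, which makes it one of the long members.

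Mrpl2 (chr17:46783178-46787088), the counterpart of bacterial L2 beside the site of peptide bond formation, had 19.7, 19.1 and 19.0 CPM in WT and 25.0, 22.2 and 20.6 CPM in KO. The WT values were nearly equal and the KO values spread, and edgeR put the log2 fold change at 0.23 (SE 0.10, adjusted p = 0.296), or 0.15 without KO replicate 1. Mrpl51 (chr6:125141819-125145601), a mitochondrion-specific protein, had 27.8, 22.7 and 26.4 CPM in WT and 31.6, 30.2 and 28.4 CPM in KO, a log2 fold change of 0.23 (SE 0.10). Its groups were apart by a narrow margin, and the value was 0.15 without WT replicate 2. Mrpl44 (chr1:79772593-79778020), also mitochondrion-specific and with a fold like that of ribonuclease III, had 21.7, 19.1 and 20.3 CPM in WT and 24.5, 25.5 and 21.5 CPM in KO, and here KO replicate 3 fell below WT replicate 1 (0.23, SE 0.10, or 0.14 with the offsets).

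The stalk of the large subunit recruits translation factors, and its base is built around Mrpl10. Mrpl10 (chr11:96902874-96910527) had 34.9, 33.3 and 30.8 CPM in WT and 37.9, 41.0 and 36.5 CPM in KO, without overlap (edgeR log2 fold change 0.22, SE 0.08, adjusted p = 0.261). Of the 5 stalk genes, Mrpl10, Mrpl11, Mrpl12, Mrpl53 and Mrpl54, 4 were tested and all 4 had a positive fold change, with a median of 0.20. With the offsets 3 of the 4 were positive (median 0.12), and with library totals also 3 (median 0.124). Mrpl11 stood at 0.20 (SE 0.09) and Mrpl54 at 0.20 (SE 0.10), whereas Mrpl12, whose product is repeated in the stalk, stood at 0.02 (SE 0.13). The summed stalk level was 71.05 to 80.51 CPM in WT and 81.50 to 90.17 CPM in KO.

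Around the exit of the peptide tunnel, Mrpl22, Mrpl23, Mrpl24, Mrpl45 and Mrpl47 had a median of 0.113, and their summed level overlapped between the groups, at 62.09 to 67.05 CPM in WT and 65.92 to 70.95 CPM in KO. Mrpl45, which anchors the ribosome to the inner membrane, had 10.3, 12.5 and 13.2 CPM in WT and 13.8, 13.4 and 12.6 CPM in KO (log2 fold change 0.15, SE 0.12). Mrpl24 was level, at 22.0 to 22.8 CPM in WT and 21.8 to 23.7 CPM in KO (0.02, SE 0.07). Mrpl58, a peptidyl-tRNA hydrolase that frees stalled chains and is built into the large subunit, had 15.0 to 16.2 CPM in WT and 15.6 to 19.0 CPM in KO (0.14, SE 0.10), with overlap.

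Mrpl37 was the large subunit gene that went the other way with its groups apart. It encodes a mitochondrion-specific protein, lies on chr4:106728479-106739473 (mm9), and had 19.5, 21.4 and 19.8 CPM in WT and 18.7, 17.2 and 18.0 CPM in KO. The highest KO library was less than 1 CPM below the lowest WT library. The edgeR log2 fold change was -0.17 (SE 0.08, adjusted p = 0.367). The other negative large subunit genes were near 0 and overlapped: Mrpl55 and Mrpl19 at -0.04, Mrpl9 at -0.03, Mrpl39 at -0.02 and Mrpl22 at -0.01, and the signs of Mrpl19, Mrpl55, Mrpl9 and Mrpl39 each turned when 1 library was left out.

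In the small subunit, Mrps14 had the highest fold change. It encodes the counterpart of bacterial S14, in the head of the subunit, and lies on chr1:162125346-162132301 (mm9). Its level was 28.9, 21.5 and 25.9 CPM in WT and 33.5, 31.1 and 29.7 CPM in KO. The groups did not overlap, but the WT libraries spread widely, at 25.4 ± 3.72 against 31.4 ± 1.95 (SD, n = 3). The edgeR log2 fold change was 0.31 (SE 0.12, adjusted p = 0.281), 0.20 without WT replicate 2 and 0.18 with the length and GC offsets.

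Mrps23 (chr11:88017890-88025009), a mitochondrion-specific protein, had 32.6, 27.9 and 32.4 CPM in WT and 36.6, 40.6 and 34.4 CPM in KO, without overlap (edgeR log2 fold change 0.26, SE 0.10, adjusted p = 0.264). Mrps33 (chr6:39751803-39760987), also mitochondrion-specific, had 16.5, 16.7 and 15.9 CPM in WT and 19.0, 18.3 and 21.1 CPM in KO (0.25, SE 0.09, adjusted p = 0.248 by edgeR). The KO libraries of both genes were all above WT, but the value for Mrps33 with the length and GC offsets was 0.06.

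A family of 3 genes, Mrps18a, Mrps18b and Mrps18c, corresponds to the single bacterial S18, and their products occupy different sites in the ribosome. In the classes above Mrps18b was counted as mitochondrion-specific, and Mrps18a and Mrps18c as having a bacterial homologue. Mrps18b (chr17:36047324-36053334) had 5.76, 3.87 and 5.82 CPM in WT and 6.28, 5.80 and 6.41 CPM in KO (0.26, SE 0.19), and WT replicate 2 was the lowest of the 6 libraries, without which the value was 0.09. Mrps18c had 5.73 to 7.08 CPM in WT and 6.34 to 8.00 CPM in KO (0.14, SE 0.15). All 3 were above 0 and all 3 overlapped between the groups.

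Mrps12 had the most negative fold change of the family. It encodes the counterpart of bacterial S12, a protein of the decoding centre, and lies on chr7:29524660-29526839 (mm9), with 1040 exonic bases. Its level was 24.6, 30.4 and 21.7 CPM in the WT libraries and 21.5, 21.5 and 17.9 CPM in the KO libraries. The groups did not overlap, but WT replicate 3 was almost level with KO replicates 1 and 2, and the means were 25.6 ± 4.47 and 20.3 ± 2.07 (SD, n = 3). The edgeR log2 fold change was -0.33 (SE 0.15, adjusted p = 0.321), -0.25 when sex was a covariate and -0.39 under the offsets. When WT replicate 2, the highest library, was left out it was -0.19. Without Mrps12 the small subunit median was 0.0986 over 28 genes. The remaining negative small subunit genes, Mrps24 at -0.02 and Mrps26 at -0.01, were near 0.

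**Figure D3:**
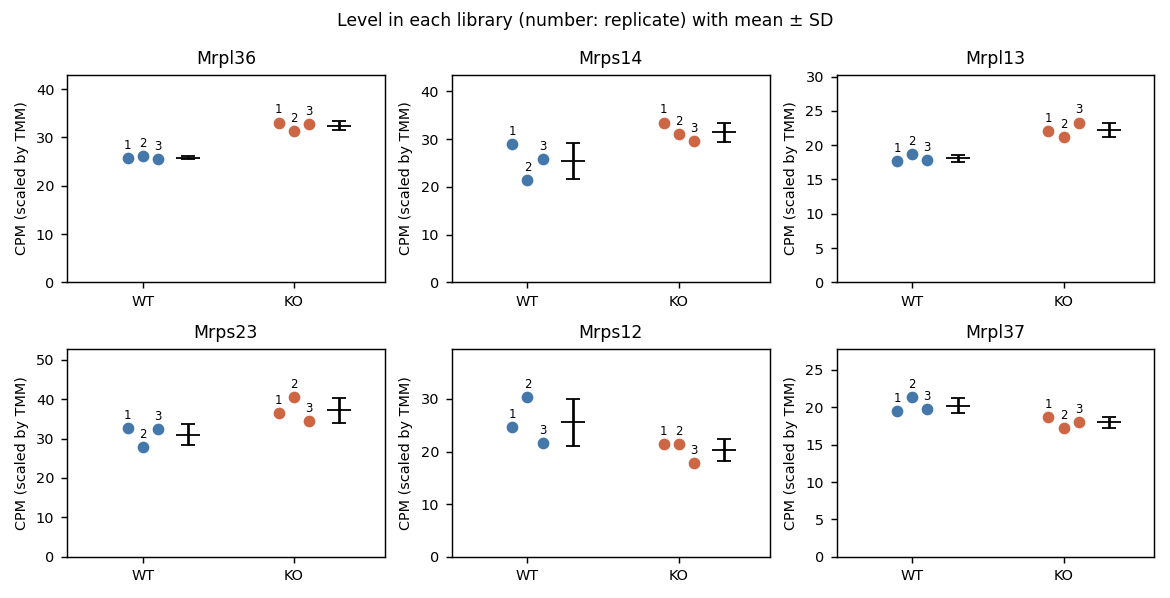
Level in CPM (scaled by TMM) of 6 members in each library, numbered by replicate, with the mean ± SD of 3 libraries beside them. Mrpl36, Mrps14, Mrpl13 and Mrps23 have each KO library above each WT library, and Mrps12 and Mrpl37 have each KO library below.

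Levels can be compared between genes only per length, and per kilobase of annotated exon the tested members spanned 1.16 to 33.7 CPM per kb in WT, with a median of 9.8 for the large and 7.31 for the small subunit. The highest large subunit genes were Mrpl42 at 33.7 ± 1.13 in WT and 39.1 ± 0.964 in KO, Mrpl52 at 32.5 ± 2.97 and 35.5 ± 4.16, and Mrpl36 at 28.7 ± 0.352 and 36.1 ± 1.06 CPM per kb (SD, n = 3). Mrpl42 and Mrpl52 did not differ beyond their spread in either group. The highest small subunit genes were Mrps16 at 28.0 ± 0.754 in WT and 30.7 ± 1.12 in KO, Mrps12 at 24.6 ± 4.30 and 19.5 ± 1.99, and Mrps23 at 19.9 ± 1.71 and 23.8 ± 2.01 CPM per kb. Mrps12 stood above Mrps23 in the WT mean and below it in the KO mean, with WT values that overlapped. The lengths count the exons of every annotated isoform.

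The Mrpl42 transcript (chr10:94943440-94964561) itself stood apart, at 22.9, 21.6 and 22.9 CPM in WT and 25.9, 25.5 and 26.7 CPM in KO (edgeR log2 fold change 0.21, SE 0.07, adjusted p = 0.233), but at 0.04 with the offsets. Mrps16, counterpart of bacterial S16, had 15.6, 16.3 and 15.6 CPM in WT and 16.6, 17.6 and 17.8 CPM in KO (0.13, SE 0.08). Mrpl52 overlapped, with 12.5 to 14.8 CPM in WT and 12.6 to 15.7 CPM in KO (0.12, SE 0.12).

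Mrpl53, a stalk protein gene, was the member that was not tested, with 0 counts in all 6 libraries, which allows up to 0.110 to 0.117 CPM for counting error only. In the annotation of mm9, 87.1% of its exonic bases (chr6:83059089-83059933) are shared on the same strand with Ccdc142, and whether the authors' counting left such reads out is not given in the sources used here. In all, 27 of the 78 members share an exonic base with another gene, 6 of them on the same strand. For 3 the share is over 50%, which besides Mrpl53 were Mrps34 at 77.8% (log2 fold change 0.02, SE 0.22) and Mrps25 at 53.7% (0.09, SE 0.14). The values of such members are uncertain.

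Some members sit back to back with another gene. A protein-coding gene starts on the opposite strand within 1000 bp for 17 of the 77 tested members (22.1%), compared with 10.2% of 13694 tested protein-coding genes. Mrps12 starts 171 bp from Sars2, the mitochondrial seryl-tRNA synthetase, which was level at 4.74 to 5.80 CPM in WT and 5.05 to 5.58 CPM in KO (log2 fold change 0.02, SE 0.15) beside -0.33 for Mrps12. Mrpl10 starts 153 bp from Lrrc46, which was at -0.02 (SE 0.26) beside 0.22. Mrpl37 starts 120 bp from Cyb5rl, at 0.03 (SE 0.19) beside -0.17. Other partners lay further from 0, on either side. Psma2 was at 0.29 (SE 0.07) beside 0.12 for Mrpl32, and Ptcd2 at 0.24 (SE 0.11) beside 0.01 for Mrps27. Helq was at -0.21 (SE 0.08) beside 0.14 for Mrps18c, and Eme2 at -0.58 (SE 0.24) beside 0.02 for Mrps34. The difference between partners was not tested.

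Promoters of 300 bases were matched for 69 of the 78 members in the RefSeq table for GRCm38.p6. Of these, 26 (37.7%) held the GABP letters CCGGAAG, 20 (29.0%) the NRF1 letters CGCANGCG and 12 (17.4%) the YY1 letters AAGATGGC on either strand. Over all 32851 promoters of the table the shares were 8.86%, 8.21% and 2.75%, and over the promoters of 11376 tested genes they were 18.5%, 18.2% and 4.85%. At least 1 of the 3 motifs was held by 44 members (63.8%), compared with 35.5% of the tested genes; the GABP and YY1 letters can share 3 bases where they adjoin. The median log2 fold change was 0.142 with and 0.116 without the GABP letters, 0.114 and 0.137 for NRF1, and 0.096 and 0.134 for YY1. The differences between these medians were not tested.

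The other genes of mitochondrial translation were taken from lists by function, and edgeR called no gene of these lists. Of 5 mitoribosomal proteins under other symbols, 3 had a positive fold change and the median was 0.0781. Dap3, which binds GTP in the small subunit, had 35.0, 37.1 and 34.7 CPM in WT and 33.4, 34.3 and 29.5 CPM in KO, just without overlap (-0.13, SE 0.08). Ptcd3, an RNA-binding protein of the small subunit, was at -0.05 (SE 0.13) and turned sign under 4 alternatives. Gadd45gip1, of the large subunit, was at 0.08 (SE 0.11).

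Of 25 assembly and rRNA modification genes 14 were positive, with a median of 0.0162 that was -0.0605 with library totals. Examples are Eral1, a chaperone of the small subunit rRNA, at -0.12 (SE 0.10), Nsun4, an rRNA methyltransferase, at -0.07 (SE 0.11), and its partner Mterf4 at 0.09 (SE 0.11). Of 15 translation factors 9 were positive, with a median of 0.123 that was 0.0239 with the length and GC offsets. The initiation factors Mtif2 and Mtif3 were at -0.14 (SE 0.08) and 0.15 (SE 0.12). The value for Mtif2 was -0.25 with the offsets, and that for Mtif3 was 0.03 without KO replicate 1 and 0.36 with the sex covariate. The elongation factor Tufm was at 0.04 (SE 0.09), or -0.03 with library totals.

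Of the 15 translation factors DESeq2 called 1 higher and 1 lower. The shares over all genes to which it gave an adjusted p were 1.96% and 4.1%. The recycling factor gene Mrrf had 16.0, 16.7 and 15.8 CPM in WT and 20.0, 21.8 and 20.1 CPM in KO (edgeR log2 fold change 0.35, SE 0.08, adjusted p = 0.151, and 0.0416 by DESeq2). Guf1, a translational GTPase, had 14.1, 14.6 and 15.1 CPM in WT and 11.3, 9.55 and 10.4 CPM in KO (-0.48, SE 0.10, adjusted p = 0.135 by edgeR and 0.0198 by DESeq2). The KO libraries stood apart from WT for both genes.

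The 22 mitochondrial aminoacyl-tRNA synthetases, which charge tRNAs for the mitochondrial ribosome, divided into 12 positive and 10 negative, with a median of 0.0276 that was -0.0138 with the offsets and -0.0484 with library totals. Aars2 was at -0.24 (SE 0.16) and Cars2 at -0.29 (SE 0.18). Of 9 genes for transcription and upkeep of mitochondrial DNA 6 were positive, with a median of 0.0897 that was -0.037 with the offsets. The RNA polymerase Polrmt had 21.1, 20.8 and 17.8 CPM in WT and 16.7, 15.3 and 15.6 CPM in KO (-0.32, SE 0.10, adjusted p = 0.208 by edgeR), Tfam was at 0.11 (SE 0.06) and Tfb2m at 0.29 (SE 0.09). With the offsets Polrmt was at -0.16 and Tfb2m at 0.15.

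The list of 12 regulators of nuclear genes for mitochondria had 2 positive genes and a median of -0.0929. Nrf1 was at -0.10 (SE 0.10), or 0.01 with the offsets, Gabpa at 0.08 (SE 0.07) and Gabpb1 at -0.06 (SE 0.10), all with overlap. Gabpb2, which encodes a partner of GABPA, was at -0.36 (SE 0.08, adjusted p = 0.143 by edgeR and 0.0124 by DESeq2). DESeq2 called only this gene of the 12, beside 4.1% of all genes with an adjusted p called lower.

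The products of the mitochondrial ribosome are assembled with subunits of oxidative phosphorylation encoded in the nucleus. A chosen list of 43 of these subunits had a median of 0.227, and all 43 were positive. Groups stood apart with KO higher for 33 of the 43 (76.7%, background 11.3%) and 30 had an unadjusted p below 0.05 (background 6.99%), beside 28 and 10 of the 77 members. DESeq2 called 8 of the 43 higher, and 3 of the 13 messenger RNAs of the mitochondrial genome. The share over all genes to which it gave an adjusted p was 1.96%. Examples from complex I were Ndufa1 at 0.23 (SE 0.10), Ndufa2 at 0.27 (SE 0.08) and Ndufa5 at 0.27 (SE 0.08), which with the offsets were at 0.08, 0.17 and 0.14. With the offsets the median of this list was 0.143 and with library totals 0.15. The 13 messenger RNAs of the mitochondrial genome, the templates of this ribosome, were also all positive, with a median of 0.388, or 0.205 with 9 of 13 positive with the offsets. Its 2 rRNAs were at -0.05 (mt-Rnr1, SE 0.09) and 0.18 (mt-Rnr2, SE 0.11), and how much rRNA the library preparation left is not given in the sources used here.

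Cytosolic ribosomal proteins, which build the other ribosome of the cell from transcripts of similar length (median 1499.5 bp), had a median of 0.0495, with 48 of 62 positive; this median became -0.0274 with library totals and -0.0383 with the offsets. Rpl3 was at 0.12 (SE 0.13), Rpl4 at 0.02 (SE 0.08) and Rpl5 at 0.08 (SE 0.07), of which Rpl4 was negative on both alternatives. Groups stood apart with KO higher for 7 of the 62 cytosolic genes (11.3%, the same as over all tested genes) and for 28 of the 77 mitochondrial ones. The difference between the families was not tested.

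**Figure D4:**
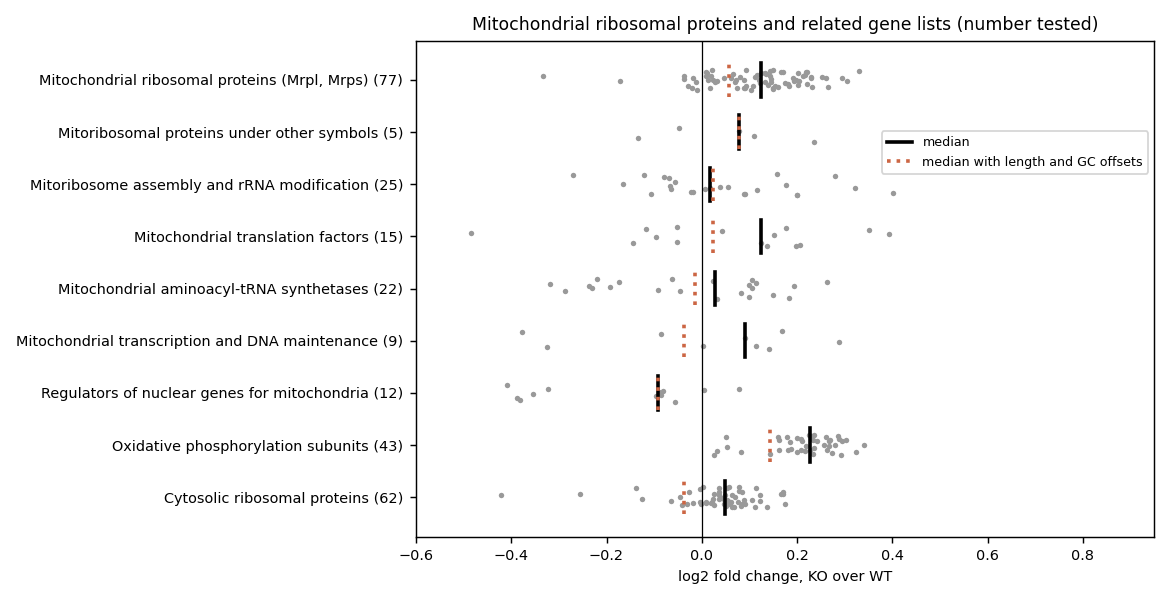
Log2 fold change of KO over WT (x axis) for each tested gene of the Mrpl and Mrps family and of 8 related lists, with the number tested in brackets. The solid bar is the list's median and the dotted bar its median with length and GC offsets: 0.125 and 0.0569 for the members, 0.227 and 0.143 for oxidative phosphorylation, 0.0495 and -0.0383 for cytosolic ribosomal proteins, which turn sign with the offsets and, at -0.0274, with library totals.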

How the data were processed

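RNA of 6 islet libraries, 3 WT and 3 KO by the labelled genotype, was sequenced. HISAT2 2.1.0, HTSeq, CASAVA 1.8.2, DESeq2 and build mm9 appear in the submitters' processing notes, and the annotation and strand setting were not given in the sources used here. The authors deposited raw counts per gene, whole numbers without normalization, and 0 sample columns were left unmatched.

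In R 4.3.3, edgeR 4.0.16 (filterByExpr, TMM, quasi-likelihood F-test) was fitted to all 6 libraries, and p-values were adjusted by Benjamini-Hochberg over 15915 genes and called below 0.05. Levels are CPM scaled by TMM, and SE is the log2 fold change divided by the root of F. Lengths come from GENCODE vM1, where 75 members matched by symbol and 2 tested members by synonym. Alternatives were DESeq2 1.42.0 on the same genes, limma-voom (limma 3.58.1), DESeq2 size factors, library totals, other filters, a replicate block, sex or acinar covariates, length and GC offsets, leaving out each library, and a looser threshold of 0.1.

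Values are printed for the 10 most positive and 6 most negative members, the 3 highest per kilobase in each subunit, Mrps30, Mrps18a, Mrps36, untested members and the first 3 tested of each list, of which 1 is not reported here. Other genes named were chosen after their values were seen, and members and lists were chosen with earlier results of these data known. Only the main edgeR fit was run on simulated data. The planted changes were larger than that of any member, so the run does not bear on changes as small as these. Figures used Python 3.11.15 and matplotlib 3.10.9.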

Additional observations from a re-analysis of the deposited data

How the results depend on the processing

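With 3 libraries a group, log2 differences of about 0.1 lie near the error of single members. Counts of all genes called lower (27) were 120 with library totals, 437 with DESeq2, 4 with length and GC offsets, 125 at an adjusted p below 0.1, 0 with limma-voom, the sex covariate or the acinar covariate, and 0 to 80 when 1 library was left out, with 80 without WT replicate 3, 4 without KO replicate 1 and 0 without any of the other four. Genes called higher (0) were 209 with DESeq2, 7 at an adjusted p below 0.1 and 0 to 9 when 1 library was left out, with 9 without WT replicate 3 and 1 without KO replicate 1. Members called higher were 1 with DESeq2 and 0 elsewhere; members called lower were 0 throughout. With the replicate block 0 genes and 0 members were called and the members' median was 0.125. Deviations of same-numbered WT and KO libraries correlated at 0.206, 0.0646 and 0.0765, and WT replicate 2 correlated more with KO replicate 3 (0.0899), so the numbers were not taken as pairs. Members with groups apart and KO higher (28) were 12 with library totals. Medians with library totals and with offsets were 0.0473 and 0.0569 for the members, 0.0654 and 0.0641 for the large and 0.0179 and 0.0477 for the small subunit. The small subunit median was 0.0821 to 0.129 when 1 library was left out, the highest without WT replicate 1, and the members' median 0.116 to 0.153. The log2 differences of the subunit sums were 0.0604 and 0.0190 with library totals. Of 736 alternative values for the 46 named genes tested by rule, 20 in 12 genes changed sign, and Mrpl36 passed with DESeq2. With offsets Mrps36 was -0.06, Nrf1 0.01, Rpl4 -0.10 and Rpl5 -0.01; with library totals Tufm was -0.03 and Rpl4 -0.06; with the sex covariate Ptcd3 was 0.13, Nsun4 0.01 and Rpl3 -0.02; with the acinar covariate Mrpl39 was 0.03 and Ptcd3 0.07. When 1 library was left out Mrpl19 was -0.11 to 0.06 (positive without WT replicate 1), Mrpl39 -0.06 to 0.06 (positive without WT replicate 1), Mrpl55 -0.11 to 0.07 (positive without WT replicate 3, and 0.01 without KO replicate 3), Mrpl9 -0.06 to 0.01 (positive without WT replicate 3), Ptcd3 -0.14 to 0.03 (0.03 without WT replicate 1 and 0.01 without KO replicate 3), Tufm -0.02 to 0.09 and Rpl4 -0.02 to 0.04 (both negative without KO replicate 1). The cause was not tested. The DESeq2, limma-voom, filter and covariate alternatives give no own value for groups that stand apart.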

Other observations

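The 5 pseudogene rows left out of the family held few reads. Mrpl48-ps was read 50, 53 and 105 times in WT and 119, 81 and 60 times in KO, with overlap, and Mrpl23-ps1 had 7 to 12 counts per library. Mrps36-ps1 and Mrps36-ps2 had 0 to 5 counts per library and Mrps36-ps3 had 0 in all 6. Reads shared between such copies and their parent genes may be split by the counting, so the parents Mrpl48 (log2 fold change 0.17, SE 0.10), Mrpl23 (0.11, SE 0.09) and Mrps36 (0.12, SE 0.13) carry that uncertainty.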
